A study of Mus musculus with 11 samples.

Results

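Endothelial cells (EC) and adipose stem cells (ASC) of perigonadal white adipose tissue (pgWAT) were compared within the same animals. Of 3261 single-cell transcriptomes in the series, 2551 came from the 9 plates on which both classes could be had for a mouse id, and 2052 of these were members, 607 EC and 1445 ASC. A cell was taken as EC when the summed level of Pecam1, Cdh5 and Kdr reached 100 CPM (counts scaled to 1000000 reads in genes) with Pdgfra and Pdgfrb each under 20, C1qa under 50 and Prox1 under 10 CPM. A cell was taken as ASC when Pdgfra reached 20 CPM with an endothelial sum under 50 CPM. The other 499 cells were in neither class, and 136 of them had at least 50 CPM of the macrophage gene C1qa. Of the EC, 12 had a sum from 100 to under 150 CPM and 25 cells were left out with a sum from 50 to under 100 CPM as the sole failed criterion. Of the ASC, 50 had Pdgfra from 20 to under 40 CPM, and 36 cells were left out with Pdgfra from 10 to under 20 CPM as the sole failed criterion. Median levels were far from these limits, at 1529 CPM for the endothelial sum in EC and 269.6 CPM for Pdgfra in ASC, and since these 7 genes chose the cells, none of them was tested.

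All cells were from adult, chow-fed male and female Pdgfrb-GFP mice on a C57BL6/J background, in which green fluorescent protein is expressed under control of Pdgfrb, a gene of mural cells and fibroblasts. Neither a treatment nor another allele separated the groups. Cells of the stromal vascular fraction, the cells that remain when the fat-filled adipocytes float off, were gated as CD45-negative and sorted by CD31 (the protein of Pecam1), by the GFP reporter and, in mouse 2, by DPP4, and sequenced by Smart-seq2, which reads whole transcripts but carries no molecular identifiers. Counts of the cells were summed per mouse id and class, which gave 5 EC and 5 ASC sums. Mice 1 and 8 were male, mice 2 and 5 female, and the female id 6/7 stood for 2 animals whose cells shared plates. Mouse 1 gave 153 EC and 202 ASC, mouse 2 gave 201 and 718, mouse 5 gave 56 and 90, mouse 6/7 gave 163 and 290, and mouse 8 gave 34 and 145. The sums held 16024821 to 184232976 reads in EC and 58515473 to 569909030 reads in ASC. In mice 1 and 2 nearly all EC and ASC came from different plates with different sorts, so that plate and class cannot be told apart there. In mouse 6/7, 242 of the 290 ASC came from a plate with 2 EC. The other plate held 161 EC and 48 ASC from separate gates, so that gate and class cannot be told apart. The 56 EC and 90 ASC of mouse 5 shared a plate labelled as PDGFRB-positive. In mice 5, 6/7 and 8 plates with both classes gave 251 EC and 283 ASC, and a comparison within these plates is given beside the genes whose call it changed. Genes with few reads could not be tested on these plates. Among the genes called below these were Ackr1, Dll1, Epha2, Erg, Hgf, Nlrc5, Robo1, Sema3d, Sema3f, Tgfb1, Unc5b and Vwf. Values of the 5 mouse ids are given throughout in the order 1, 2, 5, 6/7 and 8.

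Endothelial cells line the vessels of fat tissue, hold together through junctions of claudins and cadherins, and pass lipoprotein-derived fatty acids from the blood to the adipocytes. Adipose stem cells, also called preadipocytes, are fibroblast-like cells around these vessels that build the collagen-rich matrix and can become adipocytes. The classes are neighbours that exchange signals such as vascular endothelial growth factor (VEGF), platelet-derived growth factor (PDGF), chemokines and Notch ligands.

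Summed levels of markers that the rule did not use stood on the side of the class names. Marker sums are given here as CPM of the reads outside ribosomal RNA. Summed over 8 blood endothelial genes (Cldn5, Esam, Emcn, Tie1, Tek, Ptprb, Egfl7 and Erg), the 5 EC sums held 8126 to 14340 CPM and the ASC sums 94.2 to 129.9 CPM, where Tek gave 86.5 to 119 CPM. Summed over 9 ASC genes (Col1a1, Dcn, Lum, Col3a1, Cd34, Ly6a, Pi16, Dpp4 and Fmo2), the ASC sums held 30150 to 69560 CPM and the EC sums 1826 to 3486 CPM. Of these 9, Ly6a (log2 fold change of EC over ASC -0.17, adjusted p = 0.55, edgeR) and Fmo2 (-0.47, adjusted p = 0.70) did not separate the classes, with Ly6a higher in the EC of mice 5 and 8 and Fmo2 in the EC of mice 2, 5 and 6/7. Marker sums of adipocytes, lymphatic endothelium and macrophages were higher in EC in 5 of 5 mouse ids, and that of red blood cells in 3 of 5. Genes of adipocytes (Adipoq, Cidec, Car3, Cfd and 6 others) summed to 2579 to 5856 CPM in EC and to 3.88 to 149 CPM in ASC, and 52.9% to 71.6% of the EC of a mouse, against 0% to 5.17% of the ASC, held at least 100 CPM of 8 of these genes. The 0% stood for 0 of 90 ASC in mouse 5 and 0 of 145 in mouse 8, with Wilson 95% upper limits of 4.09% and 2.58% that cover counting error only. Genes of lymphatic endothelium (Flt4, Lyve1, Ccl21a, Mmrn1 and Reln) summed to 2480 to 2564 CPM in the EC of mice 1, 5 and 8, where Ccl21a took 1830 to 2005 CPM, but to 131.8 and 345 CPM in mice 2 and 6/7, and to 1.58 to 5.20 CPM in ASC. Globin genes and Alas2 of red blood cells ran from 0.691 to 21860 CPM in EC, high in mice 1, 2 and 6/7 and below the ASC value in mice 5 and 8, and from 4.03 to 62.3 CPM in ASC. The ranges of mural genes overlapped, with 50.5 to 303 CPM in EC and 64.8 to 333 CPM in ASC, and macrophage genes summed to 12.7 to 120 CPM in EC and 6.90 to 20.5 CPM in ASC. The part of adipocyte, lymphatic, macrophage or red blood cell RNA in the contrast was not tested. The comparison below was repeated in the 220 EC and 1411 ASC with under 100 CPM of the 8 adipocyte genes, here named low-adipocyte cells. Of the 2734 genes called below, 2562 could be tested in these cells and 1968 kept their call. Dll1, Efnb2, Sema3f, Tgfb1 and Vwf could not be tested there.

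EC gave less RNA per cell than ASC. Median reads in genes outside ribosomal RNA per read of the ERCC spike-in, a fixed amount of synthetic RNA added to each well, were 28.4, 8.31, 16.2, 16.99 and 51.4 in EC and 122, 30.0, 92.7, 65.5 and 215 in ASC. The value was lower in EC in 5 of 5 mouse ids and 4.28-fold lower on average (exact sign-flip permutation test over 5 pairs, two-sided, p = 0.0625, the smallest that 5 pairs allow). On the plates with both classes it was 4.03-fold lower in 3 of 3 mouse ids. After each cell was thinned to 150000 reads, EC showed 2471 ± 87.0 detected genes and ASC 4068 ± 603 (SD, n = 5, mean of per-mouse medians), lower in EC in 5 of 5 (exact p = 0.0625). Ribosomal RNA took about the same share of reads, with 49.8% in EC and 49.2% in ASC, while the mitochondrial share was 1.57% ± 0.565 in EC and 1.17% ± 0.552 in ASC and higher in EC in 5 of 5 (exact p = 0.0625). The ranges of EC and ASC over mice overlapped for the spike-in measure, and each mouse id held its own distance between the classes. Levels below are relative to the reads in genes, so a gene at equal CPM had fewer reads per spike-in read in EC.

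**Figure D1:**
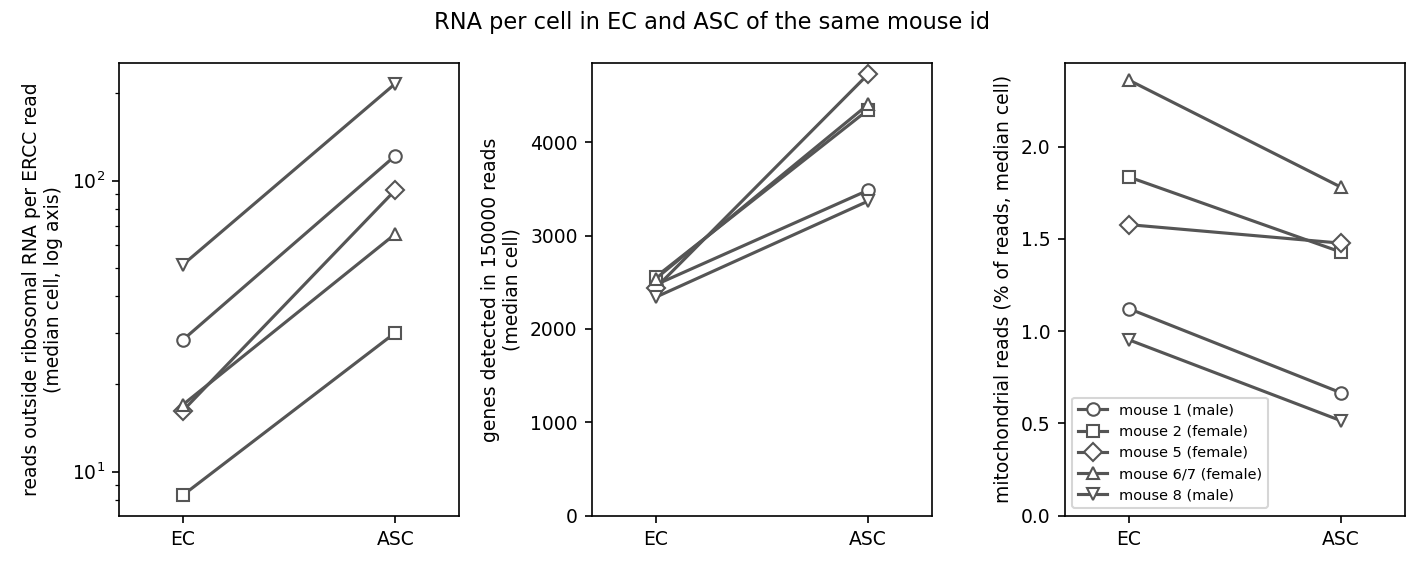
RNA per cell in EC and ASC. Each line joins the EC and the ASC value (median over cells) of a mouse id, for reads outside ribosomal RNA per ERCC read on a log axis, detected genes after thinning to 150000 reads, and the mitochondrial share in percent. All 5 lines rise from EC to ASC in the first panels and fall in the mitochondrial panel.

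The contrast within mice reached a large part of the transcriptome. Of 12192 genes tested, 1101 (9.03%) were higher in EC and 1633 (13.4%) were higher in ASC, together 22.4%, at an adjusted p below 0.05 and a fold change above 2.6 (edgeR quasi-likelihood test with the mouse id as a block, Benjamini-Hochberg over all genes tested). Adjusted p-values below are from this test, log2 fold changes are EC over ASC, and "called" means past both limits. The SE given with a log2 fold change is its absolute value divided by the square root of the F statistic of this test. It does not give the spread of the ratios between mouse ids. Over all genes tested, the log2 fold change had a median of -0.18. The 5 EC and 5 ASC sums did not overlap for 8.96% of genes with EC above and for 13.9% with ASC above, and for 2251 of the 2734 called genes. Scaled to ERCC reads instead of library totals, the median of all genes moved to -2.10, 509 genes were higher in EC and 8243 in ASC, and 235 of the called genes changed direction. All directions below are therefore relative to the other RNA of the same cells.

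**Figure D2:**
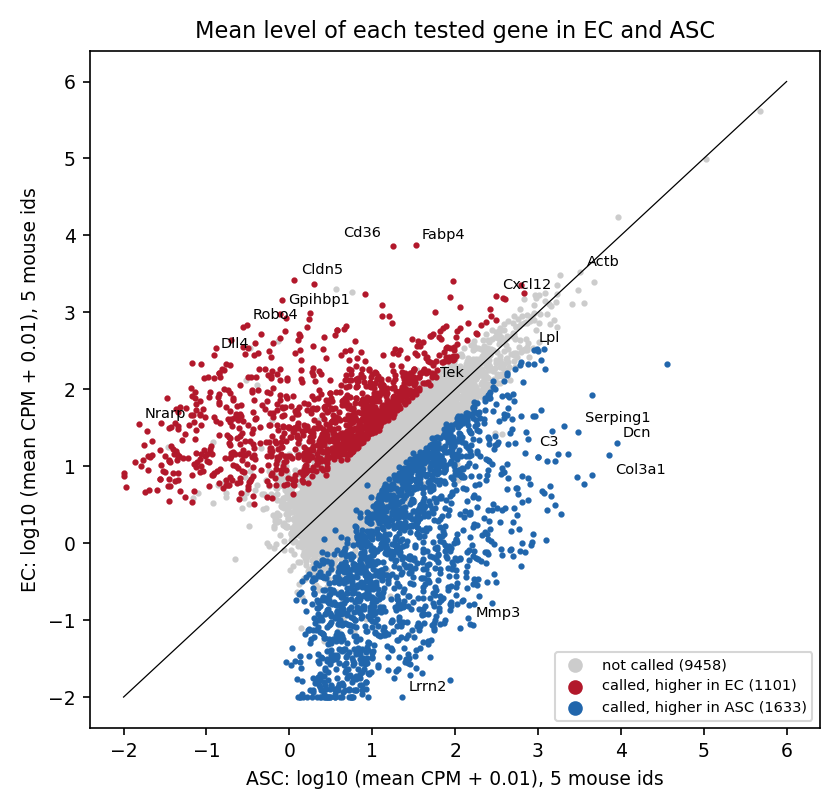
Mean level of each tested gene in ASC (horizontal) and EC (vertical), as log10 of mean CPM plus 0.01 over the 5 sums of a class, with the line of equal levels. Red points are the 1101 genes called higher in EC, blue points the 1633 called higher in ASC and grey points genes that were not called; Gpihbp1, Cd36 and Fabp4 lie among the red and Dcn, Col3a1 and C3 among the blue points far from the line.

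The genes with the largest log2 fold change toward EC were Nrarp, C1qtnf9, 4930578C19Rik, Slc28a2, Mall, Robo4, Dll4, Depp1, Cldn5, Adgrl4, Nos2, Tmem182, Aplnr, Gpr4 and Mmrn2. Robo4 (a guidance receptor of endothelium), Cldn5 (the claudin of tight junctions), Adgrl4 (an adhesion receptor) and Mmrn2 (a matrix protein of vessels) are surface or secreted proteins of EC. Dll4, a Notch ligand, and Nrarp, a target and feedback inhibitor of Notch, stood beside them. Nrarp had 13991 reads in the EC sums and 2 in the ASC sums, a ratio per read of 20300 with an exact 95% interval of 5618 to 167600. This interval, and those for reads below, pool the mouse ids and do not cover the spread between mice. They treat reads as independent, although reads without molecular identifiers are not molecules. C1qtnf9 (CTRP9, a secreted relative of adiponectin) measured 229, 193, 138, 126 and 406 CPM in EC and 0.0168, 0, 0.0639, 0.0498 and 0.158 CPM in ASC. C1qtnf9 had a log2 fold change of 12.48 ± 1.14 (SE, adjusted p = 0.00025). Slc28a2, a nucleoside transporter, measured 151, 197, 219, 167 and 338 CPM in EC and 0.0336, 0.00531, 0.192, 0.0782 and 0.0658 CPM in ASC. Slc28a2 had a log2 fold change of 11.97 ± 0.88 (SE, adjusted p = 0.0001). Nos2, the inducible nitric oxide synthase, was among the leading genes at 36.5 ± 26.3 CPM in EC and 0.0312 ± 0.0564 CPM in ASC (SD, n = 5), as was Aplnr, the apelin receptor, at 345 ± 339.6 CPM in EC and 0.121 ± 0.0882 CPM in ASC. For all 15 the EC sums lay above the ASC sums, as the choice of these genes required.

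The genes with the largest log2 fold change toward ASC were Lrrn2, Col6a5, Myoc, Cpz, Efs, Clec3b, Mmp3, Sema3b, Timp1, Eya2, Larp6, Ssc5d, Abca6, Mfap4 and 1700019D03Rik. Among them, Col6a5 is a collagen VI chain, Mfap4 a microfibril protein, Mmp3 a matrix metalloproteinase, Timp1 its inhibitor, Cpz a carboxypeptidase and Larp6 a factor that binds collagen messenger RNA. Lrrn2 had no read in the EC sums and 28250 reads in the ASC sums, which is at least 3246-fold higher in ASC when the floor of 3 reads is set over the 5 EC sums. Col6a5 had 3 reads in EC and 51388 in ASC, a pooled ratio of 5904 with an exact 95% interval of 2020 to 28630. Its ASC level varied widely between mice, at 316, 5.82, 2.97, 4.66 and 105 CPM. It was highest in the male mice 1 and 8, so the pooled ratio rests mainly on them. Clec3b (tetranectin) measured 0.0425, 0.0162, 0.0766, 0.247 and 0.399 CPM in EC and 145, 349.6, 162, 169.9 and 559 CPM in ASC. Clec3b had a log2 fold change of -11.27 ± 0.86 (SE, adjusted p = 0.00012). Mmp3 measured 0, 0.0324, 0.268, 0.101 and 0 CPM in EC and 3, 171, 358, 199 and 19.4 CPM in ASC. Mmp3 had a log2 fold change of -11.26 ± 0.49 (SE, adjusted p = 2.1e-05). Timp1 measured 0, 0.00404, 0.0766, 0.0112 and 0 CPM in EC and 30.6, 29.6, 36.9, 16 and 12.1 CPM in ASC. Timp1 had a log2 fold change of -11.14 ± 0.88 (SE, adjusted p = 0.00014).

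Promoter sequence of 3 of these and the following genes is shown as an example of the letters searched. ETS factors such as Erg and Fli1, themselves called in EC, bind the letters AGGAAG (reverse complement CTTCCT), and AP-1 factors bind TGAGTCA, which reads TGACTCA on the other strand. The 250 bases before the RefSeq start of each gene (GRCm38.p6, plus strand, 5′ to 3′) are given with matches of both motifs in capitals for Eng at chr2:32646345-32646594, C1qtnf9 at chr14:60767884-60768133 and Mmp3 at chr9:7445572-7445821.
Eng: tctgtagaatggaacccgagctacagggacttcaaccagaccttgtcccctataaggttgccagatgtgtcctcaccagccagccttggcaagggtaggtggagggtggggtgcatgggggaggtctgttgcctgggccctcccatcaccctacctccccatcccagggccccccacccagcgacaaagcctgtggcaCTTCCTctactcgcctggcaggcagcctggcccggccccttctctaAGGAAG
C1qtnf9: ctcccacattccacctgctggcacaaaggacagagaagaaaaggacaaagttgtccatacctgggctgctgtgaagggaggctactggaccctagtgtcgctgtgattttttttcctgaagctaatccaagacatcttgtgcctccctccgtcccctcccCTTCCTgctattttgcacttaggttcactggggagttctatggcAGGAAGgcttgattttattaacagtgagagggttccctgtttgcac
Mmp3: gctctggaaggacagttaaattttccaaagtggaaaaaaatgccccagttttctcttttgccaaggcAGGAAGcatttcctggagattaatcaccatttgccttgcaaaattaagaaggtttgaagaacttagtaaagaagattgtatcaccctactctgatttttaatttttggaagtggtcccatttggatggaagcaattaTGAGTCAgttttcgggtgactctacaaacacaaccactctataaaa
In these 250 bases Eng and C1qtnf9 each held 2 ETS and 0 AP-1 matches, and Mmp3, a gene called in ASC, held 1 of each. The ETS letters occurred on either strand in 35.4% of 32841 promoter windows of 300 bases (250 before to 50 after the start), in 5 of the 11 leading EC genes with a window, in 4 of 9 leading ASC genes, in 6 of 9 genes of endothelial surface and junction and in 7 of 19 matrix genes. The AP-1 letters occurred in 5.2% of all windows, in 0 of the 11 and 1 of the 9 leading genes, in 0 of 9 surface and junction genes and in 2 of 19 matrix genes. The share over all windows counts windows, while in the lists a gene was counted when any of its windows held the letters. A match is a description of these letters and not a bound site.

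Genes of endothelial surface and junction were higher in EC almost throughout. Of 20 tested, 19 (95%) were called in EC and 0 (0%) in ASC, beside 9.03% and 13.4% of all genes. The median log2 fold change was 9.28 beside -0.18 for all genes. Cldn5 (ENSMUSG00000041378, chr16:18776847-18778262) measured 1457, 3682, 2476, 2936 and 2701 CPM in EC and 0.664, 0.117, 0.91, 1.68 and 2.33 CPM in ASC. Cldn5 had a log2 fold change of 11.49 ± 0.93 (SE, adjusted p = 0.00015). Robo4 measured 802, 536, 410.3, 381 and 1264 CPM in EC and 0.235, 0.00796, 0.144, 0.235 and 0.855 CPM in ASC. Robo4 had a log2 fold change of 11.76 ± 1.03 (SE, adjusted p = 0.0002). Tie1, an orphan receptor of the angiopoietin pathway, measured 346, 308, 189, 187 and 755 CPM in EC and 0.202, 0.0398, 0.144, 0.213 and 0.737 CPM in ASC. Tie1 had a log2 fold change of 10.70 ± 0.65 (SE, adjusted p = 5e-05). These EC sums lay far above every ASC sum. Esam, Icam2, Ptprb and Ushbp1 had log2 fold changes of 10.75, 10.80, 10.30 and 10.37. S1pr1, the sphingosine phosphate receptor, was at 815 ± 387 CPM in EC and 1.71 ± 1.04 CPM in ASC, and Nos3, the endothelial nitric oxide synthase, at 151 ± 89.3 CPM in EC and 0.592 ± 0.714 CPM in ASC. Eng, the TGF-beta coreceptor endoglin, was also present in ASC at 154, 74.7, 62.1, 69.4 and 216 CPM, against 990.4, 768, 879, 983 and 2257 CPM in EC (log2 fold change 3.42 ± 0.24 SE, adjusted p = 9.2e-05). The exception was Tek, the angiopoietin receptor Tie2, which measured 78.3, 111, 127, 127 and 159 CPM in EC and 46.2, 49.5, 51.5, 41.9 and 83.4 CPM in ASC. Its EC level was above its ASC level in each mouse id, but 1 EC sum lay below the highest ASC sum and the difference missed the fold limit (log2 fold change 1.15 ± 0.20 SE, adjusted p = 0.0049). In the low-adipocyte cells Tek was called, at a log2 fold change of 1.43. Vwf, a marker of larger vessels, was low in both classes, at 3.79 ± 4 CPM in EC and 0.237 ± 0.108 CPM in ASC (log2 fold change 3.39 ± 0.84 SE, adjusted p = 0.021), and it was not called without mouse 1 (3.44, adjusted p = 0.062).

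Of 21 endothelial transcription factors tested, 17 (80.95%) were called in EC and 0 (0%) in ASC, beside 9.03% and 13.4% of all genes (median log2 fold change 5.48). Sox17 measured 109.8, 168, 168, 175 and 98.8 CPM in EC and 0.118, 0.00796, 0.0639, 0.0853 and 0.197 CPM in ASC. Sox17 had a log2 fold change of 10.94 ± 0.94 (SE, adjusted p = 0.00018). Its relatives Sox18 and Sox7 had log2 fold changes of 10.05 and 7.78. Tcf15, a factor of the fatty acid program of heart and muscle capillaries, measured 105, 69, 26.2, 39.5 and 106 CPM in EC and 0.53, 0.0212, 0.016, 0.0391 and 0.0526 CPM in ASC. Tcf15 had a log2 fold change of 10.06 ± 0.78 (SE, adjusted p = 0.00013). Its partner gene Meox2 measured 118, 148, 255, 170.3 and 319 CPM in EC and 0.647, 3.68, 10.6, 3.36 and 13.2 CPM in ASC. Meox2 had a log2 fold change of 5.48 ± 0.51 (SE, adjusted p = 0.00026). The ETS factors Erg, Fli1, Ets1, Ets2 and Elk3 were called at 8.79, 7.28, 3.62, 4.34 and 3.53. Epas1, the hypoxia-inducible factor HIF-2alpha, was at 488 ± 228 CPM in EC and 51.5 ± 43.8 CPM in ASC. The shear-responsive factors Klf2 and Klf4, Foxo1 and the venous factor Nr2f2 were not called, with log2 fold changes of 0.52, -0.41, 0.25 and -1.26. Klf2 measured 152, 122, 73.6, 71 and 120.1 CPM in EC and 61, 149, 42.1, 75.3 and 67 CPM in ASC, values that overlapped. Tal1 did not pass the filter on low counts (over 600 in 2 sums). It had 2841 reads in EC and 3 in ASC, a pooled ratio of 2748 with an exact 95% interval of 939 to 13330.

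Of 19 mesenchymal transcription factors tested, 0 (0%) were called in EC and 15 (78.95%) in ASC, beside 9.03% and 13.4% of all genes (median log2 fold change -7.24). Osr1 measured 0.411, 0.138, 0.0383, 0.73 and 0.159 CPM in EC and 146, 108, 48.2, 89.3 and 133 CPM in ASC. Osr1 had a log2 fold change of -8.73 ± 0.59 (SE, adjusted p = 7.8e-05). Tcf21, a factor of visceral fat and other mesenchyme, measured 0.0284, 0.0485, 0, 0.0337 and 0.239 CPM in EC and 37.2, 83.4, 49.4, 50.7 and 59 CPM in ASC. Tcf21 had a log2 fold change of -10.25 ± 0.65 (SE, adjusted p = 5.9e-05). Wt1, a factor of visceral mesothelium and stroma, measured 0.142, 0.0121, 0.115, 0.0674 and 1.91 CPM in EC and 35.7, 44.7, 25.2, 49 and 67.6 CPM in ASC. Wt1 had a log2 fold change of -8.34 ± 1.06 (SE, adjusted p = 0.001). Each of these had EC sums near 0 and no overlap. Prrx1, Ebf2, Twist2, Gli2 and Gli3 were called at -7.73, -8.60, -6.78, -9.30 and -8.50. Twist2 was not called on the plates with both classes (-6.78, adjusted p = 0.063). Ebf1, an early adipogenic factor, was not called (70.8 ± 29.2 CPM in EC and 59.3 ± 16.9 CPM in ASC, log2 fold change 0.20 ± 0.29 SE, adjusted p = 0.66), nor were Zfp423 (-0.90), Snai2 (-0.64) and Tcf7l2 (-0.24). Tbx15, Gli1 and Runx1 had too few reads to be tested.

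Fibrillar and interstitial matrix was the most uniform list on the ASC side, with 0 of 31 genes called in EC and 31 of 31 in ASC (median log2 fold change -8.65). This was 0% in EC and 100% in ASC, beside 9.03% and 13.4% of all genes. Col3a1 (ENSMUSG00000026043, chr1:45311538-45349706), a chain of fibrillar collagen, measured 1.12, 11.4, 3.95, 7.25 and 46.2 CPM in EC and 3603, 2927, 2819, 1801 and 24966 CPM in ASC. Col3a1 had a log2 fold change of -9.15 ± 0.72 (SE, adjusted p = 0.00013). Dcn, the proteoglycan decorin, measured 1.74, 8.18, 10.7, 64 and 15.8 CPM in EC and 5928, 9619.6, 7403, 11406 and 10260.0 CPM in ASC. Dcn had a log2 fold change of -9.64 ± 0.75 (SE, adjusted p = 0.00013). Fn1, fibronectin, measured 5.23, 1.46, 1.72, 5.69 and 6.54 CPM in EC and 2190.1, 633, 1054, 712 and 2641 CPM in ASC. Fn1 had a log2 fold change of -8.48 ± 0.45 (SE, adjusted p = 3.5e-05). The lowest ASC sum of each lay far above the highest EC sum. Lum, Ogn and Mfap4 had the most negative values of the list, at -10.18, -10.32 and -10.70. Prelp, a proteoglycan that anchors basement membranes, was the smallest difference (124 ± 64.8 CPM in EC and 666 ± 711 CPM in ASC, log2 fold change -1.99 ± 0.58 SE, adjusted p = 0.038) and overlapped between classes, as did Fmod. Prelp was not called without mouse 1 (-1.75, adjusted p = 0.12), 2 (-1.97, adjusted p = 0.082), 6/7 (-1.93, adjusted p = 0.12) or 8 (-1.59, adjusted p = 0.09), on the plates with both classes (-1.44, adjusted p = 0.32) or in low-adipocyte cells (-1.47, adjusted p = 0.13).

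The basement membrane, which lies between endothelium and stroma, was split. Of 17 genes tested, 1 (5.88%) was called in EC, 8 (47.06%) in ASC and 8 were not called (median log2 fold change -1.37). Over all genes these shares were 9.03% in EC and 13.4% in ASC. Lama5, the laminin alpha-5 chain of endothelial basement membranes, was the gene called in EC, with 105, 76.4, 95.7, 68.9 and 149 CPM in EC and 0.235, 0.243, 0.144, 0.0426 and 0.184 CPM in ASC. Lama5 had a log2 fold change of 9.30 ± 0.48 (SE, adjusted p = 3.2e-05). Lama2, the laminin alpha-2 chain, was on the other side, with 0.624, 1.13, 0.192, 0.213 and 1.43 CPM in EC and 418, 169, 124, 155 and 380.4 CPM in ASC. Lama2 had a log2 fold change of -8.66 ± 0.51 (SE, adjusted p = 4.8e-05). Lama5 and Lama2 thus took opposite sides, while the beta and gamma chains Lamb1 (-4.01) and Lamc1 (-3.06) were called in ASC and Lamb2 (-0.74) and Lama4 (-1.37) were not called. Lama4 was called in ASC without mouse 1 (-1.55, adjusted p = 0.024), 5 (-1.51, adjusted p = 0.027) or 8 (-1.42, adjusted p = 0.034). Collagen IV chains Col4a1 and Col4a2 were not called, at 304 ± 194 CPM in EC and 616 ± 623 CPM in ASC for Col4a1 and 379 ± 234 CPM in EC and 410.5 ± 339 CPM in ASC for Col4a2. Nid1, nidogen, measured 186, 89.7, 166, 79.9 and 397 CPM in EC and 2124, 629, 680.4, 502 and 2217 CPM in ASC. Nid1 had a log2 fold change of -2.70 ± 0.25 (SE, adjusted p = 0.00027). Col15a1 had a log2 fold change of -5.27. Sparc and its relative Sparcl1 were high and not called, at 2480.1 ± 965 CPM in EC and 4727 ± 2506 CPM in ASC for Sparc and 1781 ± 829 CPM in EC and 1231 ± 122 CPM in ASC for Sparcl1.

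**Figure D3:**
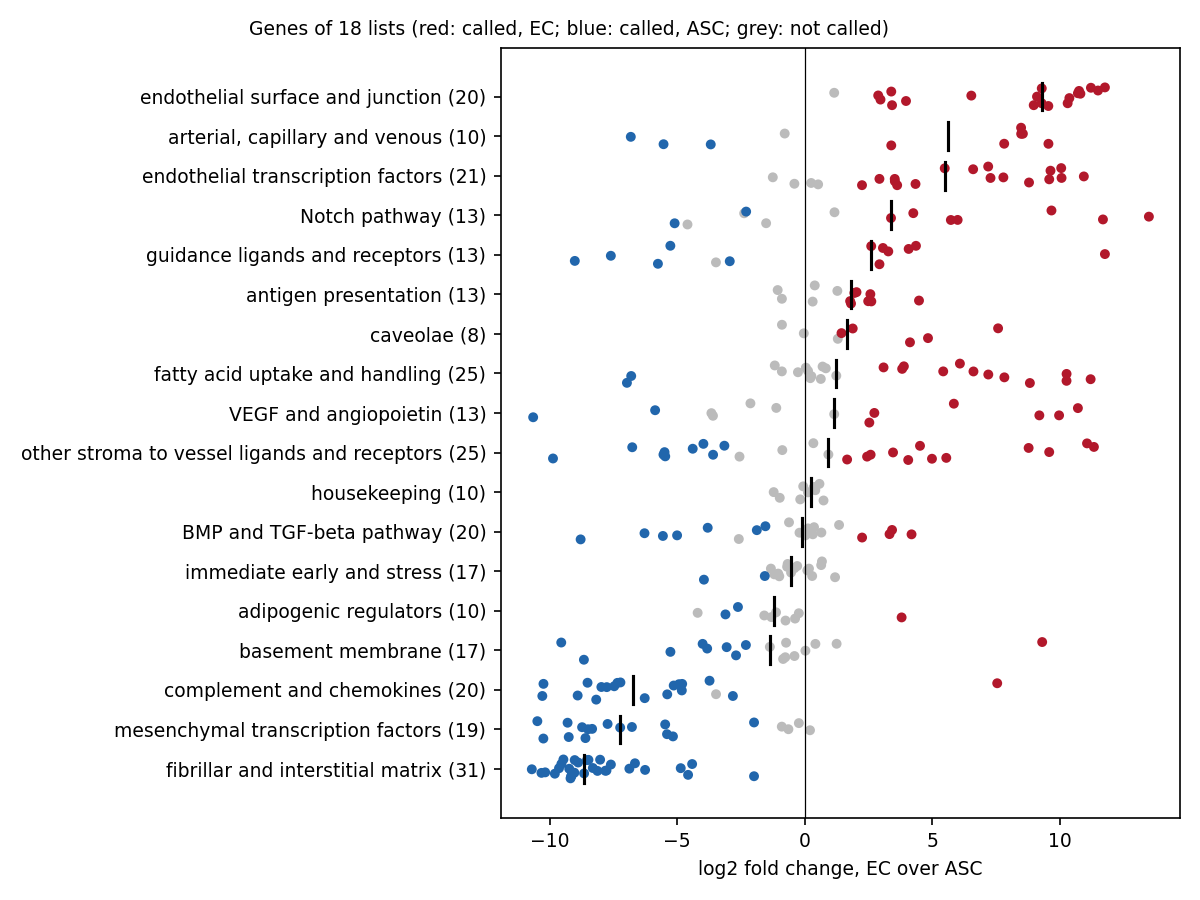
Log2 fold change (EC over ASC, horizontal) of each tested gene of 18 lists (rows, with the number of genes tested in brackets). Red points were called in EC, blue points in ASC and grey points were not called, and the black mark is the list's median; surface and junction genes lie to the right, matrix genes to the left, and the signalling lists on both sides.

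Of 25 genes of fatty acid uptake and handling tested, 12 were called in EC, 2 in ASC and 11 were not called (median log2 fold change 1.23, and -0.69 relative to ERCC reads). The shares were 48% in EC and 8% in ASC, beside 9.03% and 13.4% of all genes. Gpihbp1 (ENSMUSG00000022579, chr15:75596628-75599481), which holds lipoprotein lipase on the capillary surface, measured 1325, 1710.5, 1347, 1463 and 1451 CPM in EC and 1.19, 0.0425, 1.41, 0.768 and 0.618 CPM in ASC. Gpihbp1 had a log2 fold change of 11.20 ± 1.04 (SE, adjusted p = 0.00025). Cd36 (ENSMUSG00000002944, chr5:17781690-17888801), a fatty acid transporter, measured 8381, 7604, 7034, 8611 and 5199 CPM in EC and 20.8, 27.7, 9.25, 23.8 and 8.33 CPM in ASC. Cd36 had a log2 fold change of 8.82 ± 0.35 (SE, adjusted p = 1.9e-05). Fabp4 (ENSMUSG00000062515, chr3:10204088-10208576), the fatty acid carrier also known from adipocytes, measured 6105, 11410.0, 6826, 9148 and 3568 CPM in EC and 33.4, 52.6, 14.9, 45.9 and 21.3 CPM in ASC. Fabp4 had a log2 fold change of 7.82 ± 0.33 (SE, adjusted p = 1.9e-05). All 5 EC sums of these genes lay above 1000 CPM and no ASC sum reached 60 CPM. Lpl, the lipase that Gpihbp1 holds, went the other way without a call, at 201, 418, 363, 386 and 359 CPM in EC and 404, 1386, 730.4, 1330.5 and 460.2 CPM in ASC. Lpl had a log2 fold change of -1.18 ± 0.26 (SE, adjusted p = 0.012). Its ASC level was above the EC level in each mouse id, and in low-adipocyte cells the log2 fold change was -1.87 and Lpl was called in ASC (adjusted p = 0.0026, edgeR), as it was without mouse 8 (-1.38, adjusted p = 0.0068).

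Among receptors of lipoproteins, Scarb1, the scavenger receptor of high-density lipoprotein, measured 564, 463, 847, 437 and 1059 CPM in EC and 8.49, 2.61, 2.27, 4.66 and 6.35 CPM in ASC. Scarb1 had a log2 fold change of 7.19 ± 0.46 (SE, adjusted p = 6.2e-05). Vldlr measured 0.269, 0.392, 0.115, 2.49 and 0.0797 CPM in EC and 91.7, 36.7, 21.5, 38.7 and 60.7 CPM in ASC. Vldlr had a log2 fold change of -6.97 ± 0.87 (SE, adjusted p = 0.00091). Lrp1, a large receptor of the same family, measured 7.68, 1.16, 1.03, 6.74 and 56.8 CPM in EC and 1485, 384, 347, 246 and 1045 CPM in ASC. Lrp1 had a log2 fold change of -6.81 ± 0.86 (SE, adjusted p = 0.00097). Vldlr and Lrp1 were the genes of the list called in ASC. The water and glycerol channels Aqp1 and Aqp7 were called in EC, with 2353 ± 2446 CPM in EC and 1.99 ± 1.41 CPM in ASC for Aqp1 and 835 ± 219.8 CPM in EC and 0.913 ± 0.727 CPM in ASC for Aqp7. Genes of lipolysis were called in EC, with Mgll at 1263 ± 307 CPM in EC and 13.2 ± 4.05 CPM in ASC, Lipe at 205 ± 31.9 CPM in EC and 17.1 ± 10.9 CPM in ASC and Pnpla2 at 287 ± 85.5 CPM in EC and 20.2 ± 9.14 CPM in ASC, and log2 fold changes of 6.61, 3.81 and 3.88. Adipocytes, whose transcripts were present in EC, also express these 3 genes, Fabp4 and other genes of this list. In low-adipocyte cells the values of Mgll, Lipe and Pnpla2 were 6.60, 3.54 and 3.78. Those of Fabp4, Gpihbp1, Cd36, Scarb1 and Aqp7 were 7.93, 11.77, 9.12, 7.32 and 10.38. In the same cells 2 genes of the adipocyte list could be tested, and both were called in EC (median log2 fold change 5.78). Adipocyte transcripts thus still differed between the classes, and their part in these values was not tested. Acsl1 (3.09), an acyl-CoA synthetase, and Dgat2 (5.42), a triglyceride synthase, were called in EC but not in low-adipocyte cells, at 2.07 (adjusted p = 0.0511) and 3.59 (adjusted p = 0.087, edgeR). The fatty acid transport proteins Slc27a1, Slc27a3 and Slc27a4, Acsl4, Acsl5, Abca1, Apoe, Dgat1, Plin2 and Angptl4 were not called.

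**Figure D4:**
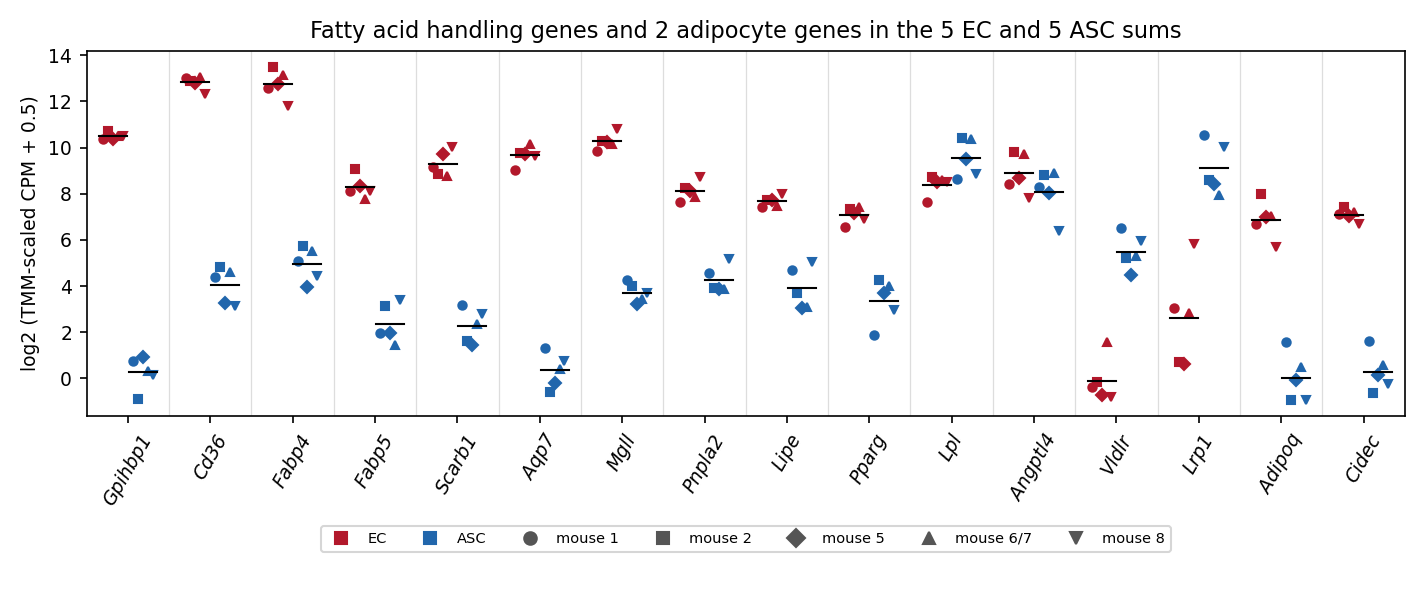
Levels of 14 genes of fatty acid handling and the adipocyte genes Adipoq and Cidec, as log2 of TMM-scaled CPM plus 0.5, in the 5 EC (red) and 5 ASC (blue) sums, with a symbol for each mouse id and a bar at the class mean. EC points lie above ASC points from Gpihbp1 to Pparg and for Adipoq and Cidec, below them for Vldlr and Lrp1, and close to them for Lpl and Angptl4.

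Caveolae, the membrane pits of endothelium and adipocytes, had 8 genes tested, of which 5 were called in EC and 0 in ASC (median 1.66, and -0.28 relative to ERCC reads). This was 62.5% in EC and 0% in ASC, beside 9.03% and 13.4% of all genes. Cav1 measured 2019, 2076, 2206, 2349 and 4309 CPM in EC and 101, 43.3, 111, 75.7 and 138 CPM in ASC. Cav1 had a log2 fold change of 4.83 ± 0.28 (SE, adjusted p = 4.2e-05). Cav2 had a log2 fold change of 7.57. The coat genes differed, with Cavin2 at 4.12 (called), Cavin1 at 1.29 and Cavin3 at -0.90 (neither called). Cavin1 was called in EC without mouse 1 (1.40, adjusted p = 0.0049) or 2 (1.42, adjusted p = 0.006) and on the plates with both classes (1.42, adjusted p = 0.022). Cavin3 sums did not overlap and were 178, 117, 131, 72.4 and 119.8 CPM in EC and 207, 229, 255, 222 and 199 CPM in ASC.

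Of 10 adipogenic regulators tested, 1 (10%) was called in EC and 2 (20%) in ASC (median log2 fold change -1.22). These shares were near those of all genes, 9.03% in EC and 13.4% in ASC. Pparg, the master regulator of adipocytes and a regulator of fatty acid transport in endothelium, was the gene called in EC, with 92.7, 161, 142, 172 and 120.0 CPM in EC and 3.16, 19, 12.4, 15.4 and 7.25 CPM in ASC. Pparg had a log2 fold change of 3.79 ± 0.32 (SE, adjusted p = 0.00017). The sums did not overlap, and in low-adipocyte cells the log2 fold change was 3.72. Cebpd and Cebpb, which act early in adipogenesis, were called in ASC, at 51.7 ± 30.9 CPM in EC and 289 ± 134 CPM in ASC for Cebpd (-2.62) and 3.49 ± 4.17 CPM in EC and 22.6 ± 12 CPM in ASC for Cebpb (-3.11). On the plates with both classes neither Cebpd (-2.15, adjusted p = 0.074) nor Cebpb (-3.35, adjusted p = 0.063) was called. There 0 of 6 regulators tested were called in ASC, beside 685 of all 7726 genes tested. Cebpa was not called (8.36 ± 6.67 CPM in EC and 6.65 ± 2.24 CPM in ASC), nor were Srebf1, Klf5, Klf9, Klf15, Nr1h3 and Rxra.

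In the VEGF and angiopoietin pathway most receptor genes were called in EC, and the ligand genes were divided or not called. Of 13 genes tested, 6 (46.15%) were called in EC and 2 (15.38%) in ASC (median 1.15, and -0.78 relative to ERCC reads). Over all genes these shares were 9.03% and 13.4%. The receptor Flt1 (VEGFR1) measured 268, 199, 274, 235 and 334 CPM in EC and 1.15, 0.171, 0.335, 0.249 and 1.01 CPM in ASC. Flt1 had a log2 fold change of 9.19 ± 0.53 (SE, adjusted p = 4.4e-05). Flt4 (VEGFR3), also a lymphatic marker, measured 163, 57.5, 83, 36.6 and 120.3 CPM in EC and 0.0673, 0.0849, 0.0319, 0.0355 and 0.289 CPM in ASC. Flt4 had a log2 fold change of 9.97 ± 0.56 (SE, adjusted p = 4.1e-05). EC sums of both lay above every ASC sum. The coreceptors Nrp1 and Nrp2 had 2.72 and 2.53. Vegfd was the VEGF gene called, in ASC, with 0.44, 0.639, 0.23, 3.54 and 5.5 CPM in EC and 48.3, 75.5, 86.6, 90.2 and 25.1 CPM in ASC. Vegfd had a log2 fold change of -5.87 ± 1.01 (SE, adjusted p = 0.0043). Vegfd lost its call on the plates with both classes (-6.92, adjusted p = 0.057). There 0 of 9 genes tested in the pathway were called in ASC, beside 685 of all 7726 genes tested. Vegfa, Vegfb and Vegfc were at 1.12 against 2.94 CPM, 4.38 against 5.21 CPM and 3.16 against 7.07 CPM (EC against ASC means) and not called, though Vegfb was called in ASC in low-adipocyte cells (-4.65, adjusted p = 0.024). Vegfc measured 1.57, 0.74, 0, 0.0112 and 13.5 CPM in EC and 14.6, 4.09, 2.11, 1.89 and 12.7 CPM in ASC, with the highest EC value in mouse 8. It was called in ASC without mouse 8 (log2 fold change -4.56, adjusted p = 0.037), and in low-adipocyte cells it was called in ASC (log2 fold change -6.93). Angpt2, the antagonist angiopoietin, measured 60.4, 42.2, 17.2, 24 and 162 CPM in EC and 0.925, 0.765, 0.208, 2.32 and 0.921 CPM in ASC. Angpt2 had a log2 fold change of 5.84 ± 0.66 (SE, adjusted p = 0.0006). Angpt1, the agonist, had ASC sums above all EC sums, with 1.49, 1.49, 0.23, 0.169 and 0 CPM in EC and 10.3, 3.15, 4.76, 1.91 and 14.3 CPM in ASC, and missed the limit (log2 fold change -3.66 ± 1.16 SE, adjusted p = 0.0534). It was called in ASC without mouse 8 (-2.92, adjusted p = 0.037) and with no mouse block (-3.30, adjusted p = 0.033). Angpt1 was also called in ASC with RLE in place of TMM factors, with the stricter cell rule, by the likelihood ratio test and by DESeq2. Angpt4, called in ASC beside Vegfd, had 3 reads in EC and 14213 in ASC, a ratio of 1633 with an exact 95% interval of 559 to 7919. It was tested on the plates with both classes and was not called there.

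Other ligands and receptors between stroma and vessel were called on both sides, 12 in EC and 9 in ASC of 25 tested (median 0.92, and -1.01 relative to ERCC reads). This was 48% in EC and 36% in ASC, beside 9.03% and 13.4% of all genes. Pdgfb, the ligand of the PDGF receptors, measured 61.8, 47.3, 77.8, 64.9 and 21.9 CPM in EC and 0.0505, 0.00133, 0.0479, 0.0284 and 0.0395 CPM in ASC. Pdgfb had a log2 fold change of 11.06 ± 0.88 (SE, adjusted p = 0.00014). Its receptors Pdgfra and Pdgfrb served the rule. Cxcl12 (SDF-1) was high in both classes and called in EC, with 1809, 1333, 2420.0, 1932 and 734 CPM in EC and 204, 395, 429, 398 and 128 CPM in ASC. Cxcl12 had a log2 fold change of 2.44 ± 0.24 (SE, adjusted p = 0.00033). Its scavenging receptor Ackr3 was called in ASC, with 58.3, 67.6, 22.1, 28.2 and 107 CPM in EC and 415, 378, 504, 525 and 361 CPM in ASC. Ackr3 had a log2 fold change of -3.15 ± 0.47 (SE, adjusted p = 0.002). Kitl (stem cell factor) and its receptor Kit were both called in EC, at 4.05 and 8.77. Kit varied between mice, with 258, 58.1, 6.86, 6.78 and 68 CPM in EC, and lost its call on the plates with both classes (6.45, adjusted p = 0.085). Apln, the ligand of Aplnr, varied likewise, with 126, 40.7, 4.9, 4.35 and 162 CPM in EC and 2.37, 1.79, 6.26, 0.594 and 13.2 CPM in ASC (log2 fold change 3.46 ± 0.91 SE, adjusted p = 0.026), and it was not called in low-adipocyte cells (4.17, adjusted p = 0.12, edgeR), nor without mouse 1 (2.84, adjusted p = 0.072), 2 (3.17, adjusted p = 0.082), 6/7 (3.69, adjusted p = 0.073) or 8 (3.39, adjusted p = 0.072), nor on the plates with both classes (2.87, adjusted p = 0.2).

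The endothelin receptors took opposite sides, Ednrb in EC (146 ± 56.1 CPM in EC and 0.381 ± 0.492 CPM in ASC, log2 fold change 9.58 ± 1.18 SE, adjusted p = 0.00087) and Ednra in ASC (0.591 ± 0.986 CPM in EC and 31.5 ± 23.6 CPM in ASC, log2 fold change -6.77 ± 0.77 SE, adjusted p = 0.00061), while the ligand Edn1 was not called (3.26 ± 3.15 CPM in EC and 10.4 ± 2.8 CPM in ASC). Ephrins and Eph receptors were called in EC, with log2 fold changes of 4.98 for Efnb2, 2.58 for Ephb4, 5.54 for Efna1 and 4.51 for Epha2. Efnb2 was not called on the plates with both classes (4.75, adjusted p = 0.1), nor Epha2 in low-adipocyte cells (4.92, adjusted p = 0.063). Growth factors called in ASC were Igf1 (9.01 ± 5.27 CPM in EC and 111 ± 86.4 CPM in ASC, -3.60), Hgf (-5.50), Fgf2 (-5.47), Fgf7 (-9.87) and Fgf10 (-3.98). The receptor Fgfr1 was also called in ASC, with 14.4, 4.77, 0.881, 1.38 and 8.13 CPM in EC and 361, 166, 102, 121 and 230.3 CPM in ASC. Fgfr1 had a log2 fold change of -5.54 ± 0.45 (SE, adjusted p = 0.00015). Axl, the receptor of Gas6, measured 47.7, 49.8, 11.7, 61.9 and 50.5 CPM in EC and 1334, 607, 567, 445 and 1683 CPM in ASC. Axl had a log2 fold change of -4.40 ± 0.47 (SE, adjusted p = 0.00047). Gas6 was not called (90.3 ± 41.3 CPM in EC and 166 ± 67.8 CPM in ASC). Igf1 lost its call without mouse 1 (-3.24, adjusted p = 0.072), Hgf without mouse 5 (-4.99, adjusted p = 0.057) and in low-adipocyte cells (-4.11, adjusted p = 0.07), and Fgf10 without mouse 6/7 (-4.03, adjusted p = 0.065). On the plates with both classes Igf1 (-3.61, adjusted p = 0.13) and Fgf2 (-6.51, adjusted p = 0.07) were not called.

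**Figure D5:**
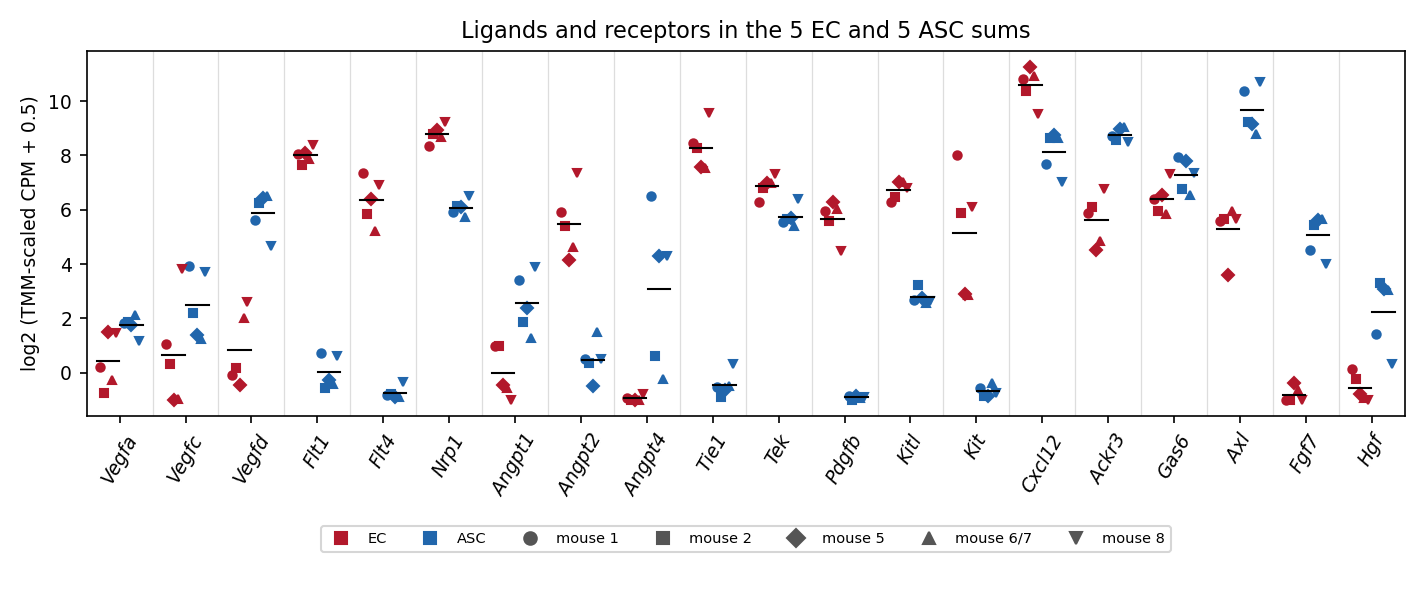
Levels of ligand and receptor genes as log2 of TMM-scaled CPM plus 0.5 in the 5 EC (red) and 5 ASC (blue) sums, with a symbol for each mouse id and a bar at the class mean. Pdgfb, Tie1 and Flt1 stand high in EC and near the floor in ASC, Vegfd, Angpt4 and Fgf7 stand higher in ASC, and the points of Cxcl12 and Tek are well above the floor in both.

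Guidance genes had 7 of 13 (53.85%) called in EC and 5 (38.46%) in ASC, beside 9.03% and 13.4% of all genes (median log2 fold change 2.601). The Slit ligands Slit2 (-5.76) and Slit3 (-2.94) were called in ASC, with Slit3 at 69.3, 28.5, 59, 10.3 and 62.3 CPM in EC and 1261, 233, 137, 134 and 350.2 CPM in ASC. Slit2 was not called on the plates with both classes (-4.39, adjusted p = 0.13). Among their receptors Robo4 was called in EC and Robo1 in ASC, where Robo1 measured 11.3, 7.97, 6.98, 6.63 and 4.76 CPM against at most 0.0225 CPM in EC (log2 fold change -9.02 ± 0.84 SE, adjusted p = 0.00026). Among semaphorins, Sema3c (-7.60) and Sema3d (-5.27) were called in ASC and Sema3f (4.36) and Sema6a (4.07) in EC. Their receptors Plxnd1, Plxna2 and Plxna4 were called in EC, at 3.27, 3.06 and 2.601, as was Unc5b (2.92). In low-adipocyte cells Plxna4 (2.52, adjusted p = 0.0537) and Unc5b (2.17, adjusted p = 0.12) were not called. There 4 of 12 guidance genes tested were called in EC, beside 732 of all 11564 genes tested. Plxna4 was also not called on the plates with both classes (2.99, adjusted p = 0.15). Unc5b was not called without mouse 1 (2.79, adjusted p = 0.057), and with no mouse block neither Unc5b (3.24, adjusted p = 0.0504) nor Plxna4 (2.09, adjusted p = 0.085) was.

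The Notch pathway had 7 (53.85%) of 13 genes called in EC and 2 (15.38%) in ASC (median log2 fold change 3.38). Over all genes these shares were 9.03% and 13.4%. The ligands Dll4, Jag2 and Dll1 were called in EC, with log2 fold changes of 11.69 for Dll4, 9.67 for Jag2 and 5.99 for Dll1. Dll4 measured 251, 153, 58.2, 97.4 and 852 CPM in EC and 0.0925, 0.00929, 0, 0.0782 and 0.395 CPM in ASC. Dll4 had a log2 fold change of 11.69 ± 0.77 (SE, adjusted p = 6.7e-05). Jag1 was not called (4.79 ± 5.603 CPM in EC and 5.94 ± 2.15 CPM in ASC). Receptors differed by paralogue. Notch1 measured 939, 293, 224, 145 and 208 CPM in EC and 90.3, 27.7, 24, 12.2 and 20.9 CPM in ASC. Notch1 had a log2 fold change of 3.38 ± 0.19 (SE, adjusted p = 3.9e-05). Notch4 had a log2 fold change of 5.72. Notch2 measured 1.62, 2.16, 0.23, 6.93 and 0.319 CPM in EC and 97.6, 24.9, 30.9, 34.8 and 48.7 CPM in ASC. Notch2 had a log2 fold change of -5.10 ± 0.89 (SE, adjusted p = 0.0046). Notch2 missed the call on the plates with both classes (-5.58, adjusted p = 0.0516). Of the targets, Hey1 was called in EC (4.25), while Hes1 sums did not overlap but missed the fold limit (83.4 ± 20.05 CPM in EC and 36.8 ± 5.96 CPM in ASC, log2 fold change 1.16 ± 0.20 SE, adjusted p = 0.0042). Rbpj, the DNA-binding partner of all Notch receptors, was called in ASC (log2 fold change -2.30 ± 0.33 SE, adjusted p = 0.0018).

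Bone morphogenetic protein (BMP) and TGF-beta genes had 4 of 20 called in EC and 7 in ASC, with a median log2 fold change of -0.09 (0.04 with library totals alone and no TMM factors). The shares were 20% in EC and 35% in ASC, beside 9.03% and 13.4% of all genes. Id1, a target of BMP signals, measured 256, 299.5, 352, 399 and 168 CPM in EC and 29, 30.5, 13.4, 6.92 and 10.4 CPM in ASC (log2 fold change 4.18 ± 0.46 SE, adjusted p = 0.00054), whereas Id2 (-0.21) and Id3 (0.31) were not called. Bmp6 was called in EC (log2 fold change 3.32 ± 0.53 SE, adjusted p = 0.0031) but not in low-adipocyte cells (2.62, adjusted p = 0.0525, edgeR). The ligand Tgfb1 was called in EC at low levels (3.88 ± 4.65 CPM in EC and 0.608 ± 0.337 CPM in ASC, log2 fold change 2.24 ± 0.65 SE, adjusted p = 0.04), but not without mouse 1 (1.91, adjusted p = 0.12), 6/7 (2.36, adjusted p = 0.1) or 8 (2.13, adjusted p = 0.071). Tgfb2 (-5.56) and Tgfb3 (-5.01) were called in ASC. Bmper, an extracellular BMP modulator, measured 1.64, 0.0162, 0.0766, 0.101 and 1.28 CPM in EC and 145, 67.9, 84.7, 74.8 and 200.1 CPM in ASC. Bmper had a log2 fold change of -8.79 ± 0.96 (SE, adjusted p = 0.00052). The receptor Bmpr1a (-6.29) was called in ASC, Tgfbr2 was present in both classes and called in ASC (215 ± 116 CPM in EC and 767 ± 323 CPM in ASC, -1.88), and Bmpr2, Acvrl1, Tgfbr1 and Tgfbr3 were not called.

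Complement and chemokine genes were mostly on the side of ASC, with 1 of 20 called in EC and 18 in ASC (median log2 fold change -6.75). This was 5% in EC and 90% in ASC, beside 9.03% and 13.4% of all genes. C3, the central complement component, measured 0.723, 18.6, 6.78, 19.9 and 25.1 CPM in EC and 1725, 1546, 934, 1092 and 6225 CPM in ASC. C3 had a log2 fold change of -7.47 ± 0.90 (SE, adjusted p = 0.0008). Serping1, the C1 inhibitor, measured 54.8, 5.36, 19.8, 9.35 and 49.6 CPM in EC and 4796, 2977, 2037, 2809 and 2752 CPM in ASC. Serping1 had a log2 fold change of -7.23 ± 0.63 (SE, adjusted p = 0.00019). The chemokines Ccl11 (-7.98), Ccl7 (-8.18), Cxcl14 (-8.91) and Ccl2 (-5.39) and the cytokines Il6 (-10.25) and Csf1 (-3.74) were called in ASC. Csf1 lost its call without mouse 1 (-3.62, adjusted p = 0.083) or 2 (-3.67, adjusted p = 0.065), on the plates with both classes (-3.52, adjusted p = 0.2) and in low-adipocyte cells (-3.26, adjusted p = 0.067). Ccl2 lost its call in low-adipocyte cells (-4.71, adjusted p = 0.095) and without mouse 5 (-5.44, adjusted p = 0.096), 6/7 (-4.24, adjusted p = 0.07) or 8 (-4.31, adjusted p = 0.061). The gene called in EC was Cxcl9, an interferon-induced T-cell chemokine, with 122, 258, 137, 210.2 and 187 CPM in EC and 0.0673, 1.46, 2.71, 21.6 and 0.0789 CPM in ASC. Cxcl9 had a log2 fold change of 7.54 ± 1.45 (SE, adjusted p = 0.0069). The ASC level of Cxcl9 was highest in mouse 6/7 and near 0 in the male ids, and each EC sum lay above every ASC sum. Cxcl10 was not called (2.47 ± 2.8 CPM in EC and 14.8 ± 9.24 CPM in ASC), but was called in ASC in low-adipocyte cells (-6.25, adjusted p = 0.016).

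Genes of antigen presentation had 8 of 13 (61.54%) called in EC and 0 (0%) in ASC, beside 9.03% and 13.4% of all genes (median 1.81, and -0.12 relative to ERCC reads). The class I genes H2-K1 and H2-D1 were high in both classes, with H2-K1 at 954, 1429, 1546, 2048 and 1662 CPM in EC and 252, 475, 302, 511 and 348 CPM in ASC (log2 fold change 2.02 ± 0.19 SE, adjusted p = 0.00028) and H2-D1 at 1.81; members of this family share near-identical sequence, so their counts are uncertain. The immunoproteasome genes Psmb8 (144 ± 60.4 CPM in EC and 26.7 ± 13.9 CPM in ASC, 2.48) and Psmb9 (2.57) and the transporters Tap1 (1.94) and Tap2 (1.77) were called, as was Nlrc5, the activator of class I genes, at 11.9 ± 8.04 CPM in EC and 1.65 ± 0.868 CPM in ASC (2.61). Nlrc5 was not called without mouse 1 (2.03, adjusted p = 0.082), 5 (2.54, adjusted p = 0.11) or 6/7 (2.55, adjusted p = 0.13), nor in low-adipocyte cells (2.78, adjusted p = 0.26). B2m was not called (1.27) except without mouse 2 (1.46, adjusted p = 0.0057) or with library totals alone (1.41, adjusted p = 0.0037). Nor were the class II genes H2-Ab1 and H2-Eb1 and Cd74 called, all under 10 CPM on average in both classes.

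Genes that mark arteries, capillaries and veins had 6 of 10 (60%) called in EC and 3 (30%) in ASC, beside 9.03% and 13.4% of all genes (median log2 fold change 5.601). Another 6, among them the arterial Gja4, Gja5 and Bmx and the venous Selp and Sele, had too few reads to be tested. Sele had no read in the EC sums and 1270 reads in the ASC sums, at least 145.9-fold higher in ASC by the floor of 3 reads. The capillary genes were called in EC, with Car4 at 278, 730.3, 858, 1036 and 282 CPM in EC and 1.19, 2.79, 0.559, 2.42 and 1.26 CPM in ASC (log2 fold change 8.55 ± 0.56 SE, adjusted p = 6.6e-05), Cd300lg at 1723 ± 506 CPM in EC and 8.15 ± 4.06 CPM in ASC, Rgcc at 588 ± 178 CPM in EC and 3.74 ± 4.28 CPM in ASC and Btnl9 at 298 ± 102 CPM in EC and 0.408 ± 0.168 CPM in ASC. Ackr1, the venular chemokine receptor, was under 0.1 CPM in each EC sum and called in ASC at a low level, with 7.33, 2.91, 4.25, 3.1 and 3.09 CPM (log2 fold change -6.82 ± 0.96 SE, adjusted p = 0.0017). Vcam1 and Fbln5 were called in ASC (-5.54 and -3.69), and Icam1 was not called (96.4 ± 127 CPM in EC and 98.4 ± 32.9 CPM in ASC). Vcam1 lost its call on the plates with both classes (-4.37, adjusted p = 0.1), and Icam1 was called in ASC in low-adipocyte cells (-2.05, adjusted p = 0.0099).

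Immediate early and stress genes, which respond to tissue dissociation, had 0 of 17 called in EC and 2 in ASC (median log2 fold change -0.54). The share in ASC, 11.76%, was near the 13.4% of all genes, and 9.03% of all genes were called in EC. Fos measured 662, 1239, 999, 1291 and 2361 CPM in EC and 1357, 3885, 2028, 3289.5 and 7163 CPM in ASC and was not called (log2 fold change -1.33 ± 0.19 SE, adjusted p = 0.0016), nor were Jun (-0.69), Egr1 (-0.67), Atf3 (-1.20) and Hspa1a (0.29). The called genes were Myc (15 ± 11.6 CPM in EC and 181 ± 53.8 CPM in ASC, log2 fold change -3.96 ± 0.75 SE, adjusted p = 0.0068) and Socs3 (129 ± 105 CPM in EC and 389 ± 273 CPM in ASC, log2 fold change -1.57 ± 0.31 SE, adjusted p = 0.0078). Socs3 lost its call without mouse 2 (-1.18, adjusted p = 0.013), with no mouse block (-1.59, adjusted p = 0.091) and on the plates with both classes (-1.02, adjusted p = 0.066). Fos was called in ASC without mouse 1 (-1.40, adjusted p = 0.0051) and in low-adipocyte cells (-1.91, adjusted p = 0.0045), and Atf3 without mouse 5 (-1.45, adjusted p = 0.024). Of 10 housekeeping genes 0 were called in either direction (median 0.23, and -1.70 relative to ERCC reads), with Actb at 3626, 2110.0, 3069.5, 1281 and 6622 CPM in EC and 2918, 2252, 3236, 2049 and 5742 CPM in ASC (-0.06). The ribosomal protein gene Rplp0 (-1.22) and the elongation factor Eef1a1 (-0.98) had the lowest values of this list, and Rplp0 was called in ASC without mouse 8 (-1.47, adjusted p = 0.0057).

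Whether the contrast differed between the 2 male and 3 female mouse ids was tested as an interaction of class and sex. No gene (0 of 12192, 0%) passed an adjusted p below 0.05 and a fold change above 2.6 (edgeR quasi-likelihood test), and the smallest adjusted p was 0.0843. At an unadjusted p below 0.05 there were 885 genes, the likelihood ratio test of edgeR called 133 and DESeq2 called 251. In simulated data of the same depths the quasi-likelihood test recovered 0% of 200 interactions of 8-fold, against 58.5% of 200 class differences of that size. Sex differences of that size in the contrast were therefore not detectable with this test.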

How the data were processed

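Single cells of pgWAT were sequenced with Smart-seq2. The authors aligned reads with STAR to mm10, quantified genes with Salmon, imported them with tximport and removed cells of low quality or mixed class. The deposited values are raw, whole-number counts per gene and cell, with 23507 gene rows and 72 ERCC rows. Tool versions are not given in the sources used here, and strand was not stated to be used, so overlapping genes are uncertain. Of the gene rows, 23432 matched GENCODE vM21 (GRCm38).

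The cells were classed by CPM over gene rows, and the counts were summed per mouse id and class. Members and gene lists were chosen with earlier results of these data known. A gene entered when over 600 counts were found in each of 2 or more sums, and the quasi-likelihood test of edgeR 4.0.16 was used (TMM, mouse id as a block since both sums of a block come from the same animals, Benjamini-Hochberg), and called at an adjusted p below 0.05 with a fold change above 2.6. The study used the likelihood ratio test. Gene levels are CPM scaled with TMM factors. Cells are not replicates; n counts mouse ids. Counts ran from 16024821 to 569909030 reads per sum, and reads are not molecules. The text names all list members, or their counts, and 15 leading genes per direction, which had at least 20 CPM in the higher class and no overlap. A gene of the fatty acid list is not reported here. On simulated data with 200 genes changed 8-fold among 12197, the class test recovered 117 (58.5%) with 3 wrong calls. Alternatives used DESeq2 1.42.0, other factors and filters, no block, mice left out, plates with both classes, a stricter cell rule, and cells thinned to 150000 reads. Scaling to ERCC reads and low-adipocyte cells were chosen after seeing the data. Scripts ran in Python 3.11.15 (scipy 1.17.1, pandas 2.3.3, numpy 2.4.6) and R 4.3.3.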

Additional observations from a re-analysis of the deposited data

Results flagged for a closer look

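Of 190 results examined for a mouse id far from the others, 3 had one, where chance alone marks about 1 in 20 groups. The log2 ratio of EC over ASC of Cebpd was -0.52 in mouse 5 and -3.27 to -2.55 in the other 4 mouse ids. The log2 ratio of Fabp4 was 8.79 in mouse 5 and 7.36 to 7.75 in the others. The log2 ratio of Fn1 was -6.85 in mouse 6/7 and -8.89 to -8.34 in the others.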

How the results depend on the processing

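Genes called in EC and ASC numbered 1101 and 1633, and 655 and 685 of 7726 on the plates with both classes, where fewer samples and genes entered. Of the genes called in the main comparison, 1812 could be tested on these plates and 1280 kept their call. Relative to ERCC reads they numbered 509 and 8243 (94.2% of calls in ASC, beside 59.7%), and in low-adipocyte cells 732 in EC and 1499 in ASC. Without each mouse id in turn the counts were 930 to 1142 in EC and 1111 to 1582 in ASC. Under the other factors, filters and tests, no mouse block (1173 and 1518), the stricter cell rule, thinned cells, and ribosomal and mitochondrial genes left out, both counts moved by less than 1.5 times. Outside the ERCC scaling and low-adipocyte cells (8 genes), no gene called in the main comparison changed direction under any of these settings. The sex difference called 133 genes by the likelihood ratio test, 251 by DESeq2 and 1 with no mouse block, beside 0; leaving out single mouse ids was not run for it. RNA content kept its direction under every setting run, and without each mouse id the log2 ratio of reads per ERCC read was -2.16 to -1.99.

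List medians changed sign relative to ERCC reads for fatty acid handling (-0.69), caveolae (-0.28), VEGF and angiopoietin (-0.78), other ligands and receptors (-1.01), antigen presentation (-0.12) and housekeeping (-1.70), where the median of all genes moved as well. With filters of 10 counts and of 1 count they changed for VEGF and angiopoietin (-0.017 and -0.020), other ligands and receptors (-0.19 and -0.20) and guidance (-1.55 and -1.55), where more genes of low count entered. Guidance was -0.34 in low-adipocyte cells and -0.017 to 3.01 without each mouse id, lowest without mouse 2. BMP and TGF-beta was 0.037 with library totals alone and -0.36 to 0.013 without each mouse id, highest without mouse 1; the cause was not tested.

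Single genes that changed sign relative to ERCC reads were B2m (-0.66), Cavin1 (-0.64), Col4a2 (-1.91), Ebf1 (-1.72), Foxo1 (-1.64), H2-D1 (-0.12), Hes1 (-0.76), Hspa1a (-1.65), Id3 (-1.62), Klf2 (-1.42), Sparcl1 (-1.51), Tap2 (-0.15) and Tek (-0.78), of which H2-D1 and Tap2 had been called. The others below were not called. On plates with both classes Actb was 0.0044, Col4a2 -0.38, Foxo1 -0.31 and Id2 0.39. With no mouse block Actb was 0.045, Cebpa 0.33, Col4a2 -0.11 and Zfp423 0.29, and of the genes given with values the calls of 3 were lost and of 1 gained, as stated beside them. Actb was 0.072 with library totals and 0.018 without ribosomal and mitochondrial genes. Col4a2 was -0.015 and -0.018 with the filters of 10 counts and of 1 count and -0.0053 with the stricter rule. In low-adipocyte cells Hspa1a was -0.30 and Tcf7l2 0.064. Without each mouse id Actb ran from -0.16 to 0.12, Cebpa from -0.76 to 0.51, Col4a2 from -0.055 to 0.20, Ebf1 from -0.017 to 0.44, Hspa1a from -0.028 to 0.62, Id2 from -0.48 to 0.038 and Tcf7l2 from -0.43 to 0.013.

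On the plates with both classes, 16 of the 186 genes given with values lost their call and 1 gained it. Genes that could not be tested in a setting are not among those counted here as lost. Angpt4, given by reads alone, is not among the 186. In low-adipocyte cells 12 lost it, among them Epha2, Hgf and Nlrc5, and 7 gained it, among them Icam1, Vegfb and Cxcl10 in ASC. Other settings changed further calls. With RLE factors Angpt1 was called in ASC, and with library totals alone B2m and Cavin1 were called in EC. With both count filters Lama4 gained a call in ASC, and Nlrc5 and Tgfb1 lost theirs. The likelihood ratio test and DESeq2 called Angpt1, Cxcl10, Edn1 and Vegfc in ASC, and DESeq2 also Vegfa. The stricter rule called Angpt1 in ASC but neither Apln nor Nlrc5. Thinned cells called Atf3, Cxcl10, Fos and Lama4 in ASC. The 5 mouse ids, with class and plate not separable in mice 1 and 2 and class and gate not separable in mouse 6/7, limit what could be called.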
